A study of Mus musculus with 21 samples.

Results

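The peroxisome genes described here were the 79 genes of 33829 listed for the pre-treatment experiment that carry the KEGG peroxisome pathway beside their name, after leaving out 3 genes that also belong to ether lipid, terpenoid or steroid synthesis pathways and 1 mitochondrial carrier. All 79 were found by gene identifier among the 55385 genes of the delayed treatment experiment, and 77 passed the filter on low counts in each experiment, the other two being the hydroxyacid oxidases Hao1 and Hao2. The label was checked against a second annotation in the same tables, in which 74 of the 79 carried a GO term naming the peroxisome and 43 a term naming the mitochondrion, 40 of them both. The members were chosen by this annotation and by no measured value, though with earlier results of these data known.

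The study asked whether irisin, the secreted part of the membrane protein FNDC5, acts on mice given MPTP, a toxin that damages dopaminergic neurons through mitochondrial complex I. All mice were male C57BL/6 with an age of 6 weeks on the labels, injected intraperitoneally, with 3 mice in each of 7 groups, and the RNA came from midbrain on the labels and from nigral tissue taken out by hand in the methods. In the pre-treatment experiment (9 mice), control mice received ddH2O for 10 days, MPTP treated mice received ddH2O for 5 days and then MPTP at 30 mg/kg/d for 5 days, and another group received irisin at 200 μg/kg/d for 5 days and then the same MPTP. In the delayed treatment experiment (12 mice), the control mice received ddH2O for 10 days, a group received ddH2O for 5 days and then irisin alone, MPTP treated mice received MPTP for 5 days and then ddH2O, and the last group received MPTP and then irisin. MPTP was thus given last in the pre-treatment experiment and first in the delayed one. The labels number the samples of a group without stating that each is a separate animal, so p-values measure the spread between these samples.

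Peroxisomes are small organelles bounded by a single membrane. PEX proteins build them: PEX3, PEX16 and PEX19 insert membrane proteins, PEX5 and PEX7 carry enzymes into the matrix through a pore that contains PEX13 and PEX14, and further membrane proteins divide the organelle. Inside, very long chain and branched fatty acids are shortened by beta- and alpha-oxidation, oxidases release hydrogen peroxide, and catalase breaks it down. In brain, peroxisomes are known for very long chain fatty acid breakdown and for the first steps of the plasmalogens of myelin, and inherited faults in them cause white matter disease.

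Total counts were 66.7 to 75.6 M (mega) a mouse in the pre-treatment experiment and 48.8 to 77.2 M in the delayed experiment, and the 79 genes took 0.360 to 0.390% and 0.384 to 0.407% of them. All 10 dopaminergic neuron markers were detected in every group, with Pitx3 at 0 in some mice, as were the markers of astrocytes, microglia, oligodendrocytes, endothelial cells, choroid plexus and red blood cells. MPTP mouse 2 of the pre-treatment experiment stood apart in the 5 choroid plexus markers, which summed to 1646 CPM (read counts relative to the library total, scaled with the TMM method) against at most 25.0 CPM in the other 8 mice, and in the delayed experiment the same sum ran from 34.6 to 1635 CPM with a wide range within groups. Each comparison below was also run without each mouse in turn. In a bulk sample, fewer cells of a type and less RNA per cell cannot be told apart.

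Midbrain expressed nearly the whole set at a moderate level. Measured per gene length as FPKM, 72 of the 79 genes reached a mean of 1 in each experiment, 22 and 21 reached 10, and 4 and 3 reached 50 in the pre-treatment and the delayed experiment. The median over the 77 tested members was 5.07 and 5.92 FPKM, beside 2.10 and 2.20 FPKM over all tested genes. The FPKM tables of the experiments were normalized separately, so levels set across them are side by side values.

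The highest levels belonged to detoxification and lipid genes. Phyh, which starts the alpha-oxidation of phytanic acid, had a mean of 63.2 FPKM in the pre-treatment and 67.7 FPKM in the delayed experiment. Prdx5, a peroxiredoxin found in peroxisomes, mitochondria and cytosol, had 62.9 and 78.8 FPKM, although 19.1% of its annotated exon bases are shared with Trmt112 on the opposite strand. Sod1, the cytosolic copper-zinc superoxide dismutase, followed at 55.2 and 56.0 FPKM, the acyl-CoA synthetase Acsl3 at 53.3 and 45.8 FPKM, and the peroxiredoxin Prdx1 at 46.4 and 44.0 FPKM.

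Each role had members at a moderate level. Among the membrane assembly genes, Pex19 (17.4 and 20.8 FPKM) lay above Pex3 (4.68 and 4.17 FPKM). The matrix import receptor genes Pex5 and Pex7 had 7.19 and 2.13 FPKM in the pre-treatment experiment and 9.04 and 2.19 FPKM in the delayed one, with Pex14 of the docking complex at 5.60 and 7.41 FPKM. The highest import gene by level was Pex5l (20.4 and 21.4 FPKM), a brain-enriched relative of Pex5 that also binds pacemaker channels.

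For fatty acid entry, Abcd3, a membrane transporter of branched chain acyl-CoA, had 14.0 and 13.5 FPKM. Of the beta-oxidation genes, Scp2, which holds the thiolase for branched chains, had 28.1 and 26.3 FPKM, and Hsd17b4, the bifunctional D-protein, 19.7 and 24.8 FPKM. The L-bifunctional enzyme gene Ehhadh was low at 1.40 and 1.48 FPKM, and Acox2, the oxidase of bile acid intermediates, was near 0 at 0.0513 and 0.0628 FPKM. Cat, catalase, had 26.8 and 32.7 FPKM, and Idh1, which supplies NADPH, 19.8 and 18.1 FPKM. The epoxide hydrolase gene Ephx2 (4.40 and 5.03 FPKM), the glutathione transferase gene Gstk1 (8.33 and 8.86 FPKM), the racemase gene Amacr (2.64 and 3.75 FPKM), the carnitine transferase gene Crot (6.08 and 5.92 FPKM), the thioesterase gene Acot8 (3.70 and 4.55 FPKM) and the D-aspartate oxidase gene Ddo (1.57 and 1.55 FPKM) were lower.

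The least expressed members were the same 6 genes in both experiments, Hao1, Hao2, Acox2, Eci3, Nos2 and Baat. Hao2 had 3 and 4 reads in all over the 9 and the 12 mice, and Hao1 24 and 6 reads. Baat, which conjugates bile acids with amino acids, had a mean of 0.103 and 0.0885 FPKM. Nos2, the inducible nitric oxide synthase of immune cells, had 0.0747 and 0.240 FPKM, and Eci3, a close copy of Eci2, 0.0845 and 0.116 FPKM. No mouse of either experiment had more than 25 reads of Baat.

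**Figure D1:**
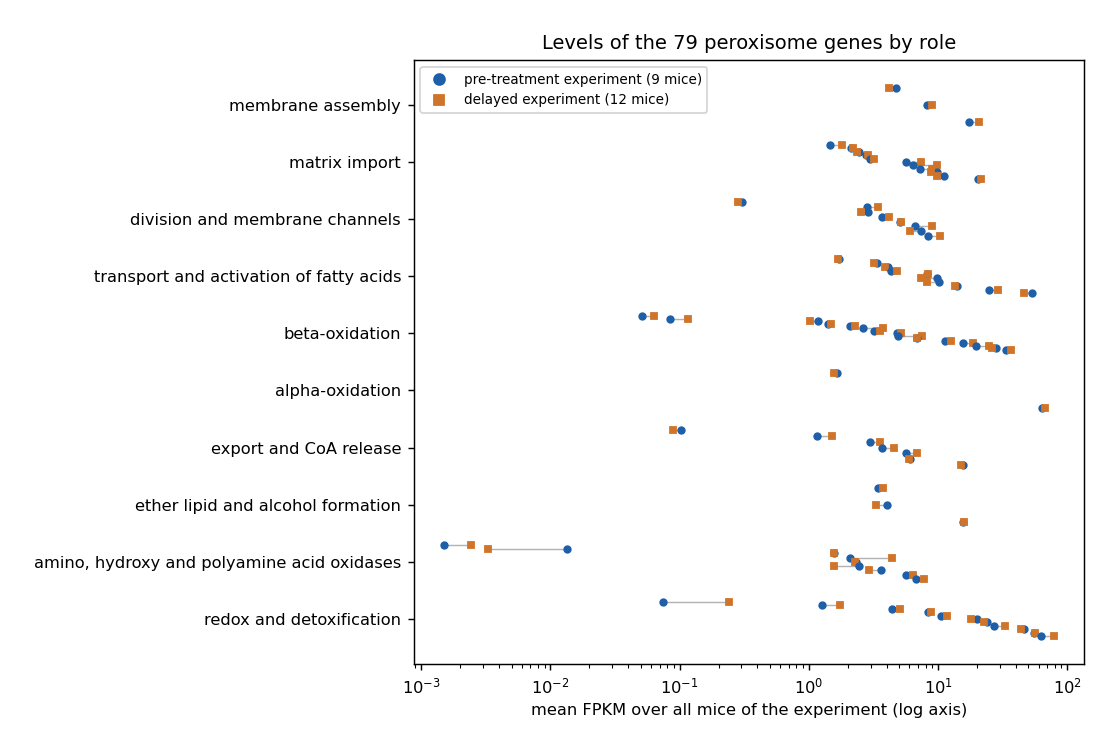
Each row is a role and each pair of points a gene, placed at its mean FPKM on a log axis in the pre-treatment experiment (blue circles, 9 mice) and the delayed experiment (orange squares, 12 mice), joined by a grey line. 72 of the 79 genes lie at 1 FPKM or above in each experiment, and Hao1 and Hao2 lie lowest.

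Between the experiments, 68 of the 72 members with a mean over 0.3 FPKM in both lay within 1.5-fold. The exceptions, named after their values were seen, were Dao, D-amino acid oxidase, with 2.08 FPKM in the pre-treatment and 4.36 FPKM in the delayed experiment, Pex6 with 6.35 and 9.79 FPKM, Mlycd with 4.92 and 7.55 FPKM, and Pipox with 2.46 and 1.57 FPKM. The experiment and its processing cannot be told apart here.

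In the pre-treatment experiment, none of the 77 tested members differed between MPTP treated and control mice in the quasi-likelihood test of edgeR after Benjamini-Hochberg adjustment (0 with an adjusted p under 0.05, the smallest being 0.609, against 0.0221% of all 22641 tested genes). DESeq2 and limma also called 0 members. An unadjusted p under 0.05 was given to 4 members, 1 higher and 3 lower with MPTP, which is 5.19% of them beside 6.03% of all genes. The groups did not overlap in 2 members that were higher (5.71% of all genes) and 6 that were lower (5.93% of all genes). By sign, 26 members were higher and 51 lower with a median log2 fold change of -0.03, beside -0.00 over all genes. Without MPTP mouse 2 that median was -0.01, and without control mouse 1 it was -0.05.

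Decr2 (chr17:26081208-26090337, minus strand, GRCm38 as in the deposited table), which reduces unsaturated fatty acyl-CoA in peroxisomes for beta-oxidation, had the smallest p. It was 24.8, 24.4 and 17.7 CPM in the control mice and 13.8, 15.3 and 15.8 CPM in the MPTP treated mice, so every MPTP treated mouse lay below every control mouse. Its log2 fold change was -0.57 with a standard error (SE) of 0.13 and an adjusted p of 0.609 (edgeR, range over the alternatives 0.0539 to 0.973). Xdh, xanthine dehydrogenase of purine breakdown, was 4.68, 8.95 and 7.13 CPM in control and 12.6, 15.7 and 9.32 CPM in MPTP treated mice. The groups of Xdh did not overlap either (log2 fold change 0.86, SE 0.26, adjusted p 0.815 from edgeR).

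Among the genes that break down peroxide and superoxide, Cat was 79.8, 81.9 and 86.3 CPM in control and 72.8, 82.7 and 79.5 CPM in MPTP treated mice, with a log2 fold change of -0.08 and a 95% interval from -0.24 to 0.08. Sod1 was 259, 252 and 271 CPM against 242, 248 and 235 CPM, and its groups did not overlap although its interval (-0.23 to 0.02) included 0. The intervals of Sod2, the mitochondrial superoxide dismutase (-0.13 to 0.11), and Prdx5 (-0.18 to 0.18) also lay on both sides of 0. Prdx1 had the lowest value of this role, with 167, 202 and 181 CPM in control and 167, 124 and 174 CPM in MPTP treated mice. These groups overlapped, with MPTP mouse 2 far below the rest (log2 fold change -0.24, SE 0.17, interval -0.63 to 0.15). Of the 11 redox and detoxification genes, 3 were higher and 8 lower by sign.

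The intervals of Pex5 (-0.26 to 0.24), Pex7 (-0.16 to 0.18), Pex14 (-0.19 to 0.17) and Pex19 (-0.29 to 0.10) all included 0. So did those of Hsd17b4 (-0.13 to 0.18), Acaa1a (-0.21 to 0.18), the thiolase of straight chains, and Phyh (-0.21 to 0.10). Pex3 was 30.1, 27.4 and 15.9 CPM in control and 27.7, 22.9 and 27.0 CPM in MPTP treated mice, a wider spread that gave an interval from -0.56 to 0.72. Over all 77 members the 95% interval stayed within 2-fold for 69 and within 1.5-fold for 55, and 69 had a fitted fold within 1.2-fold of 1. The largest fitted values, 1.91 for Acox2 and 1.84 for Eci3, came from genes with at most 37 and 30 reads in a mouse, and their intervals ran from -0.56 to 4.38 and from -2.02 to 5.70. All 5 choroid plexus markers were higher by sign with MPTP (median log2 fold change 3.06, summed 9.46 to 1646 CPM against 15.1 to 23.6 CPM). All 6 oligodendrocyte markers were lower (median -0.18, 7849 to 10310 CPM against 8639 to 13171 CPM), and no marker of either list was at 0. Of the 10 dopaminergic markers 7 were higher by sign (median 0.19, 546 to 870 CPM against 530 to 829 CPM). The 1 dopaminergic marker with an unadjusted p under 0.05 from edgeR was lower, and Pitx3 was at 0 in at least 1 MPTP treated mouse. The part of these lists was not tested. The choroid plexus sum of 1646 CPM came from MPTP mouse 2, where Decr2 was 15.3 CPM. A part of the choroid plexus in the values of Decr2 was not tested.

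**Figure D2:**
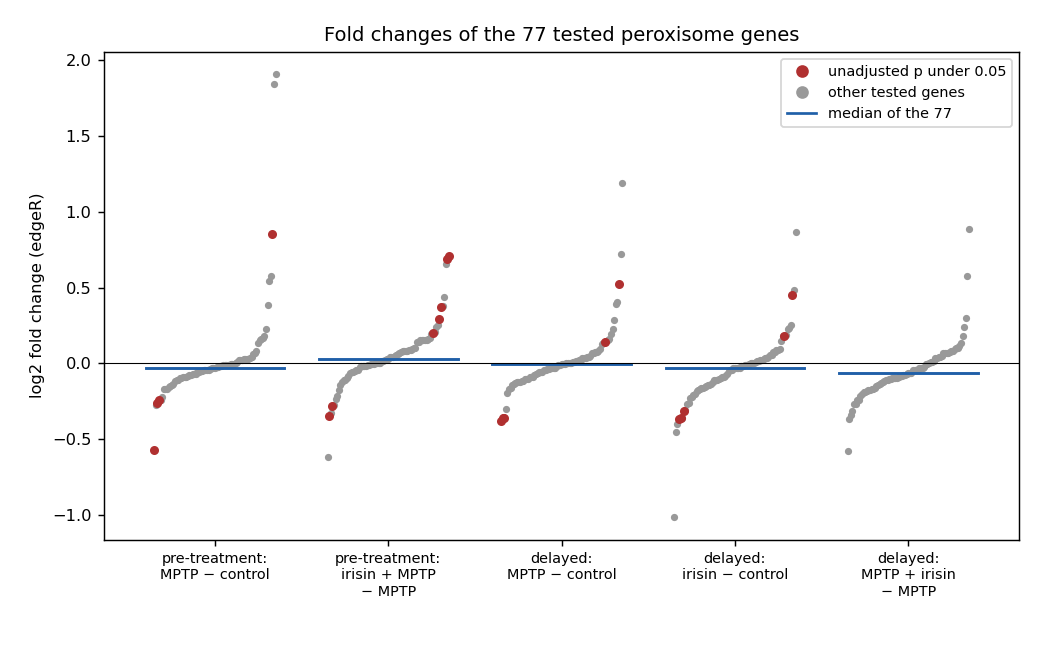
The vertical axis is the log2 fold change from edgeR, and each comparison shows its 77 tested genes in order of size, with genes at an unadjusted p under 0.05 in red and the median of the 77 as a blue line. The medians run from -0.07 to 0.03, and 0 to 7 genes a comparison are red.

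Irisin before MPTP was next compared with MPTP alone, to ask whether pre-treatment moved these genes. No member reached an adjusted p under 0.05 with edgeR (0 of 77, against 0.0707% of all genes), the smallest being 0.175. limma called 0, while DESeq2 called 1, which was Decr2, beside 169 of all 33829 genes it was run on. An unadjusted p under 0.05 was given to 7 members (9.09% of them beside 6.22% of all genes), 5 higher and 2 lower with irisin. All 3 mice lay above all 3 mice given MPTP alone in 7 members (7.14% of all genes) and below them in 5 (7.08% of all genes). By sign 47 were higher and 30 lower, with a median log2 fold change of 0.03 beside 0.00 over all genes. That median was 0.01 without MPTP mouse 1, 0.05 without MPTP mouse 3 and 0.05 without irisin and MPTP mouse 2.

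Of the 15 beta-oxidation genes, 11 were higher by sign with irisin, with a median of 0.14. The 7 members with an unadjusted p under 0.05 were spread over 3 beta-oxidation genes, 2 oxidases and 2 redox genes. Decr2 was 24.7, 25.3 and 23.5 CPM with irisin and MPTP, each above the 13.8, 15.3 and 15.8 CPM of MPTP alone and within or near the control range. Its log2 fold change was 0.71 with an SE of 0.13, and its adjusted p was 0.175 in edgeR, 0.00116 from DESeq2 and 0.0438 from edgeR without control mouse 3, in a range from 0.00116 to 0.478 over the alternatives. These MPTP treated mice also set the value of the MPTP comparison above, so both differences of Decr2 rest on the same 3 mice.

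Eci2, an enoyl-CoA isomerase for unsaturated fatty acids, was 32.3, 34.0 and 31.0 CPM with irisin against 26.9, 29.1 and 28.7 CPM with MPTP alone. Every irisin treated mouse lay above every mouse given MPTP alone (log2 fold change 0.20, SE 0.07). Scp2 moved the other way, with 98.9, 97.7 and 95.2 CPM against 121, 110 and 124 CPM, and its groups did not overlap (log2 fold change -0.28, SE 0.09, adjusted p 0.647 from edgeR).

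Outside beta-oxidation, Idh2, a mitochondrial isocitrate dehydrogenase that the pathway also lists, was 32.4, 34.5 and 36.4 CPM with irisin and 28.4, 30.0 and 26.0 CPM with MPTP alone (log2 fold change 0.29, SE 0.09, adjusted p 0.630 from edgeR). Xdh was 22.8, 17.9 and 19.8 CPM with irisin, above all 3 mice given MPTP alone and all control mice. Within the pre-treatment experiment the control mice, at 4.68 to 8.95 CPM, were the lowest group. In the 12 mice of the delayed experiment Xdh was 15.4 to 23.0 CPM. CPM was scaled in each experiment by itself, so these are side by side values.

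Cat was 79.4, 74.0 and 75.2 CPM with irisin, inside the spread of the other groups, with a log2 fold change of -0.04 and an interval from -0.20 to 0.12. The intervals of Pex5 (-0.35 to 0.16), Pex14 (-0.08 to 0.28), Pex19 (-0.15 to 0.24), Phyh (-0.17 to 0.15) and Sod1 (-0.14 to 0.11) included 0. Intervals stayed within 2-fold for 67 members and within 1.5-fold for 53. Markers moved alongside: all 5 red blood cell markers were lower by sign with irisin (summed 231 to 455 CPM against 549 to 810 CPM). All 10 dopaminergic markers (542 to 636 CPM against 546 to 870 CPM) and all 5 choroid plexus markers (10.2 to 25.0 CPM against 9.46 to 1646 CPM) were also lower by sign. Of the 5 endothelial markers 3 were higher, and 4 had an unadjusted p under 0.05, 2 higher and 2 lower. Cldn5 among them was higher (log2 fold change 0.53, adjusted p 0.129 from edgeR). Of the 6 markers in each list, 1 was higher for microglia, 1 for oligodendrocytes and 2 for astrocytes. Of these markers Pitx3, a transcription factor of dopaminergic neurons, was at 0 in at least 1 mouse of each group, with at most 0.960 CPM with MPTP alone and 0.151 CPM with irisin, and no other marker was at 0 in any mouse. Their part in these values was not tested.

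In the delayed treatment experiment MPTP was followed by 5 days of ddH2O. No member passed in MPTP treated against control mice by edgeR (0 of 77 against 0.132% of all 21922 genes), the smallest adjusted p being 0.206. limma called 0, and DESeq2 called 2, Paox and Pex5l, beside 179 of all 33492 genes it was run on. An unadjusted p under 0.05 was given to 5 members (6.49% of them beside 8.33% of all genes), 2 higher and 3 lower. Groups did not overlap in 2 higher members (8.24% of all genes) and 4 lower members (7.94% of all genes). By sign 35 were higher and 42 lower, and the median log2 fold change was -0.00, as over all genes.

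Paox (chr7:140115799-140137224, plus strand), the peroxisomal polyamine oxidase that turns acetylated spermine and spermidine back with release of hydrogen peroxide, was 14.7, 14.1 and 14.7 CPM in control and 11.3, 10.7 and 11.8 CPM in MPTP treated mice. Every MPTP treated mouse lay below every control mouse (log2 fold change -0.36, SE 0.08, adjusted p 0.206 in edgeR). DESeq2 gave Paox an adjusted p of 0.0193, in a range of 0.0193 to 0.535 over the alternatives. Among the mice of the pre-treatment experiment, Paox was 11.5, 12.5 and 12.9 CPM in control and 14.1, 9.73 and 12.8 CPM in MPTP treated mice, which overlapped.

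Pex5l (chr3:32949408-33143247, minus strand) was 140, 146 and 207 CPM in control and 244, 226 and 236 CPM in MPTP treated mice, without overlap, with control mouse 3 close to the treated mice. Its log2 fold change was 0.52 (SE 0.13), and edgeR's adjusted p was 0.277, or 0.00559 without control mouse 3, in a range of 0.00559 to 0.598 over the alternatives (DESeq2 0.0266). In the pre-treatment experiment Pex5l was 172, 256 and 165 CPM in control and 196, 201 and 210 CPM in MPTP treated mice, with the highest value in a control mouse.

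Mpv17l2, of the Mpv17 family of membrane proteins, was 16.0, 16.5 and 13.5 CPM in control and 12.6, 10.7 and 12.4 CPM in MPTP treated mice without overlap (log2 fold change -0.36, SE 0.13, adjusted p 0.473 from edgeR). Abcd3 was 84.5, 96.9 and 93.2 CPM against 101, 97.8 and 104 CPM (log2 fold change 0.14), also without overlap. Ehhadh was 5.61, 5.51 and 7.05 CPM against 5.62, 4.34 and 4.04 CPM (log2 fold change -0.38), and these groups overlapped. The 95% interval stayed within 2-fold for 67 members and within 1.5-fold for 59, among them Cat (-0.11 to 0.16), Phyh (-0.13 to 0.11), Sod1 (-0.18 to 0.12) and Sod2 (-0.09 to 0.22). Dopaminergic markers were lower by sign in 10 of 10 genes here (summed 470 to 596 CPM with MPTP and 685 to 729 CPM in control mice). Pitx3 was at 0 in at least 1 MPTP treated mouse and at most 0.268 CPM in the others, and no other marker was at 0. All 5 choroid plexus markers (34.6 to 1515 CPM against 238 to 1479 CPM) and all 5 red blood cell markers (309 to 499.8 CPM against 459 to 609 CPM) were also lower by sign, and the part of these lists in the members' values was not tested. The tyrosine hydroxylase gene Th among them had a log2 fold change of -0.68 with an adjusted p of 0.188 from edgeR.

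The sign of the MPTP difference was the same in both experiments for 48 of the 77 members (62.3%), 16 higher and 32 lower in both, beside 55.3% of all genes. The experiments share no mice, and MPTP was given at different times before tissue was taken.

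Irisin alone was compared with control mice to see the members without MPTP. No member passed with edgeR (0 of 77 against 0.109% of all genes, smallest adjusted p 0.395), and DESeq2 and limma called 0. An unadjusted p under 0.05 was given to 5 (6.49% beside 8.97% of all genes), 2 higher and 3 lower. Groups did not overlap in 1 higher member (7.43% of all genes) and 6 lower members (7.68% of all genes). By sign 29 were higher and 48 lower, with a median log2 fold change of -0.03 beside -0.00 over all genes. The median was -0.07 without control mouse 3 and -0.06 without irisin mouse 1.

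The same control mice set several of these values. Pex5l was 204, 234 and 236 CPM with irisin, of which 204 CPM lay below control mouse 3 at 207 CPM (log2 fold change 0.45, SE 0.13, adjusted p 0.395 from edgeR and 0.0129 without control mouse 3, range 0.0129 to 0.781). Abcd3 was 107, 104 and 100 CPM, above all 3 control mice (log2 fold change 0.18, SE 0.06, adjusted p 0.479 from edgeR). Ehhadh was 4.87, 4.32 and 4.95 CPM, below all 3 control mice (log2 fold change -0.36). Paox was 12.5, 13.1 and 13.0 CPM, between the control and the MPTP treated mice, with a log2 fold change of -0.17.

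Acsl6 (chr11:54303798-54364756, plus strand), an acyl-CoA synthetase of brain that prefers polyunsaturated fatty acids, was 331, 342 and 357 CPM in control and 331, 238 and 229 CPM with irisin alone. Irisin mouse 1 stood at the control level and the other two irisin mice far below it. The log2 fold change was -0.37 (SE 0.11), and edgeR's adjusted p was 0.435, or 0.00256 without irisin mouse 1 (range 0.00256 to 0.747). In 9 of the 11 redox and detoxification genes the sign was lower with irisin alone, with a median of -0.11. Cat was 92.3, 86.9 and 97.7 CPM with irisin against 105, 92.6 and 101 CPM in control mice, which overlapped (interval -0.25 to 0.03). Intervals stayed within 2-fold for 66 members and within 1.5-fold for 59. All 5 choroid plexus markers were lower by sign with irisin alone (summed 55.8 to 287 CPM against 238 to 1479 CPM). Of the 10 dopaminergic markers 1 was higher (median -0.17, summed 646 to 649 CPM against 685 to 729 CPM), and of the 6 astrocyte markers 2 were higher (median -0.09, 2692 to 2726 CPM against 2793 to 2884 CPM), so the sums of these lists did not overlap between the groups. No marker of the 3 lists was at 0 in a mouse, and their part was not tested.

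Delayed irisin after MPTP was compared with MPTP alone. No member had an adjusted p under 0.05 with edgeR (0 of 77 against 0.00456% of all genes, smallest 0.9995), with DESeq2 or with limma. An unadjusted p under 0.05 was given to 0 members by edgeR, beside 3.90% of all genes, to 0 by DESeq2 and to 3 by limma. The groups did not overlap in 2 higher members (5.35% of all genes), which included Acsl3, and in 8 lower members (5.38% of all genes), which included Cat, Hsd17b4 and Eci2. By sign 26 were higher and 51 lower, with a median log2 fold change of -0.07 beside -0.00 over all genes, or -0.03 without MPTP and irisin mouse 1.

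Cat was 95.1, 93.5 and 89.8 CPM with MPTP and irisin and 100.1, 99.0 and 104 CPM with MPTP alone. The groups did not overlap, and the log2 fold change was -0.12 (SE 0.06) with an interval from -0.26 to 0.02. Eci2 was 29.6, 28.7 and 27.8 CPM against 34.5, 30.6 and 33.2 CPM, each mouse below those given MPTP alone (log2 fold change -0.19, SE 0.09). Pex16 was 13.5, 16.1 and 18.6 CPM against 18.5, 18.5 and 19.7 CPM, which overlapped (log2 fold change -0.24, SE 0.12).

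By role, all 3 membrane assembly genes were lower by sign (median -0.15), 8 of 11 redox genes (median -0.08), 7 of 8 division and channel genes (median -0.08) and 10 of 15 beta-oxidation genes (median -0.07). Of the 11 matrix import genes 5 were higher and 6 lower (median -0.00). Of the 10 transport and activation genes 5 were higher and 5 lower (median -0.04). The oxidases and the export genes each had 3 higher and 4 lower. The ether lipid genes had 1 higher and 2 lower, and both alpha-oxidation genes were lower. Intervals stayed within 2-fold for 67 members and within 1.5-fold for 61. All 6 oligodendrocyte markers were lower by sign in the same comparison, with a median log2 fold change of -0.13 (summed 9853 to 10483 CPM with irisin and 9955 to 12056 CPM with MPTP alone, none at 0). All 5 choroid plexus markers (165 to 1635 CPM against 34.6 to 1515 CPM) and all 5 red blood cell markers (383 to 870 CPM against 309 to 499.8 CPM) were higher by sign, and the part of these lists was not tested. Between the experiments, the irisin difference in MPTP treated mice had the same sign in 34 of the 77 members (44.2% beside 50.1% of all genes). Of the others, 32 were higher with pre-treatment and lower with delayed treatment, and 11 the reverse. These counts stand beside 47 of the 77 higher with pre-treatment and 51 of the 77 lower with delayed treatment, and the reversal was not tested.

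The interaction term, which asks whether irisin differed in its effect with and without MPTP, called no member with edgeR (0 of 77 against 0.0411% of all genes, smallest adjusted p 0.893), and DESeq2 and limma called 0. An unadjusted p under 0.05 was given to 4 members (5.19% beside 5.57% of all genes), 3 with a positive and 1 with a negative term. They were Pex5l (-0.49, SE 0.18), Paox (0.27, SE 0.11), Acsl6 (0.38, SE 0.16) and Mpv17l2 (0.41, SE 0.18). Acsl6 had an adjusted p of 0.0215 from edgeR without irisin mouse 1, in a range of 0.0215 to 0.999. With irisin and MPTP, Pex5l was 241, 221 and 229 CPM, Paox 12.4, 11.7 and 12.2 CPM and Acsl6 345, 360 and 347 CPM, each near the mice given MPTP alone. All 5 choroid plexus markers (median 2.60) and all 5 red blood cell markers (median 0.54) had a positive term. All 6 oligodendrocyte markers had a negative one (median -0.15), and of the 10 dopaminergic markers 6 were positive (median 0.06). The part of these lists was not tested.

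**Figure D3:**
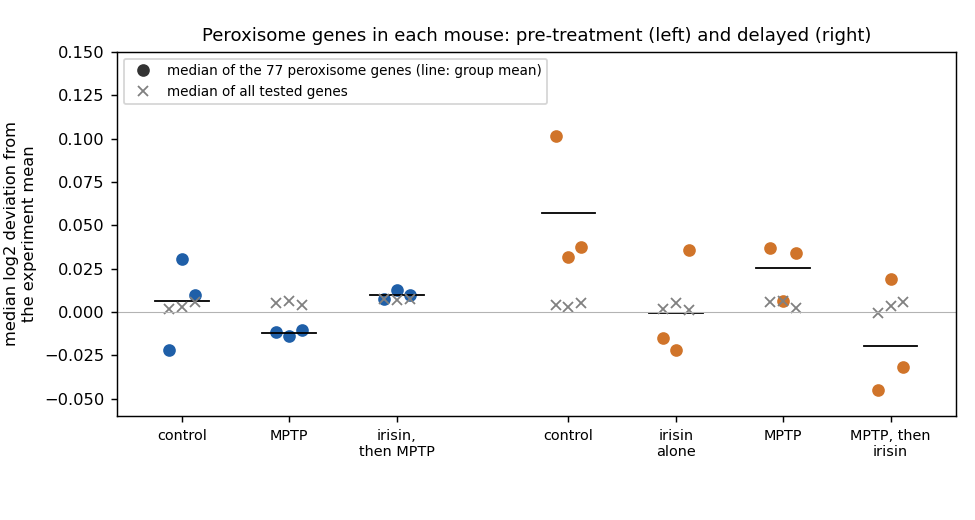
Each circle is a mouse, and the vertical axis is the median over the 77 tested members of its log2 deviation from the mean of its experiment, with the group mean as a line and the median over all tested genes as a grey cross. In the pre-treatment experiment the mice lie between -0.02 and 0.03 and in the delayed experiment between -0.05 and 0.10.

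A summary per mouse gave the same picture of small differences. The median log2 deviation of the members ran from -0.02 to 0.03 in control, stood at -0.01 in each MPTP treated mouse and at 0.01 in each mouse given irisin before MPTP. In the delayed experiment it ran from 0.03 to 0.10 in control mice, from -0.02 to 0.04 with irisin alone, from 0.01 to 0.04 with MPTP and from -0.05 to 0.02 with MPTP and irisin. The SD between mice of a group was 0.0154 and 0.0313.

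Some members had separate levels among the mice of an experiment, which were looked for without regard to group. After the values were seen, a gap was defined as at least 0.4 on the log2 scale between neighbouring mice of an experiment, with 2 or more mice on each side and a mean of at least 10 CPM. Among tested genes with that mean, it was found in 5 of 60 members in the pre-treatment experiment (8.33% beside 7.81% of 10619 genes). In the delayed experiment it was found in 7 of 64 members (10.9% beside 6.80% of 10685 genes). Acsl6 and Decr2 showed it in both. The genes of this paragraph and the next that are not described above were picked after their values were seen.

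Acsl6 stood at 192 to 220 CPM in 4 mice and at 319 to 356 CPM in the other 5 of the pre-treatment experiment, with both levels in every group, and the 229 and 238 CPM of irisin mice 3 and 2 of the delayed experiment fell on the lower side. Decr2 stood at 13.9 to 17.6 CPM in 7 mice and at 24.3 to 29.0 CPM in 5 mice of the delayed experiment, with both levels in each of its 4 groups. In that experiment its control mice had 26.9, 17.1 and 29.0 CPM and its MPTP treated mice 17.6, 24.3 and 17.2 CPM. In the pre-treatment experiment all 3 MPTP treated mice were at 13.8 to 15.8 CPM, with control mouse 3 near them at 17.7 CPM, and the other 5 mice were at 23.5 to 25.3 CPM.

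Acsl4, an acyl-CoA synthetase for arachidonic acid, was 20.4 CPM in control mouse 3 and 19.7 CPM in MPTP and irisin mouse 3 of the delayed experiment against 50.7 to 65.6 CPM in the other 10 mice, and 27.7 CPM in MPTP mouse 2 of the pre-treatment experiment against 59.8 to 73.3 CPM in the other 8. Far1, the reductase that makes the fatty alcohol for ether lipids, was 78.9 CPM in MPTP mouse 1 of the delayed experiment against 24.3 and 23.8 CPM in the other mice of its group. Over all groups of that experiment, Far1 was 42.5 to 78.9 CPM in 3 mice and 21.7 to 35.0 CPM in the other 9. Far1 mouse values in the pre-treatment experiment stayed between 27.2 and 36.3 CPM. Hmgcll1 was 12.3 and 12.6 CPM in MPTP mouse 2 and irisin mouse 2 of the pre-treatment experiment against 23.6 to 26.4 CPM in the other 7. MPTP mouse 2 of the pre-treatment experiment, low in Acsl4, Acsl6 and Hmgcll1, is also the mouse with 1646 CPM of choroid plexus markers, and the part of that difference was not tested.

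**Figure D4:**
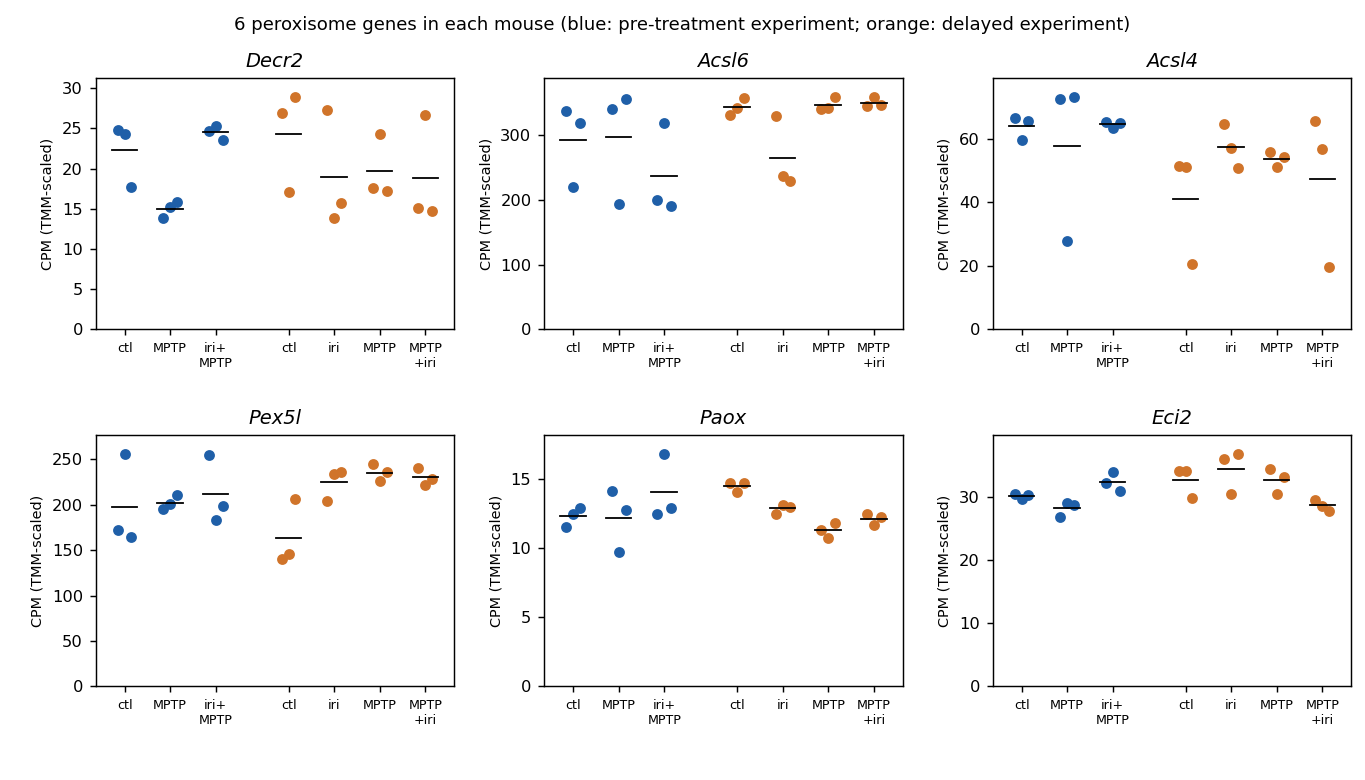
Each point is a mouse, the vertical axis is CPM from 0, lines are group means of 3 mice, and blue and orange mark the pre-treatment and the delayed experiment. Decr2 and Acsl6 fall on separate levels within groups, Acsl4 has 3 low mice, Pex5l has 2 low control mice in the delayed experiment, and Eci2 has a narrower spread.

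Sequence before the annotated start is shown for Acsl4 and Far1, where a few mice departed from the rest. It is also shown for Paox, which had the smallest p of the members in the delayed MPTP comparison. The 120 bases are from RefSeq (GRCm38.p6), 5′ to 3′ on the strand of the gene, at chrX:142390536-142390655 for Acsl4 (minus strand), chr7:113513714-113513833 for Far1 (plus strand) and chr7:140125537-140125656 for Paox (plus strand). The Paox window belongs to 1 of its 2 RefSeq starts and lies inside the deposited gene span, downstream of the start given there. Capitals mark the GC box GGGCGG or its complement CCGCCC.
Acsl4: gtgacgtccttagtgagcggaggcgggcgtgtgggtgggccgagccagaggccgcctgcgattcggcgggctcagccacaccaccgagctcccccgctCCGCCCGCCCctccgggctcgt
Far1: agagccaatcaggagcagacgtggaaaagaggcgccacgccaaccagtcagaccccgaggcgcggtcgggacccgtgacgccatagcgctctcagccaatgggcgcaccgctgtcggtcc
Paox: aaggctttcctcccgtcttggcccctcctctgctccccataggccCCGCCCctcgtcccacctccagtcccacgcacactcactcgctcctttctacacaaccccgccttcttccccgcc
Acsl4 has 2 overlapping boxes, Paox 1 and Far1 none in these windows. The window of the other Paox start, which overlaps the one shown and is not printed, has 3.

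Over the 250 bases before the start, 58 of the 79 members matched a RefSeq promoter by symbol. GGGCGG on either strand was in 40 of them (69.0%, beside 57.3% of 13900 tested genes with a promoter), CCAAT in 46.6% (39.6%) and CACGTG in 5.17% (9.01%). The 6-base site AGGTCA, read by PPAR and other nuclear receptors and part of the repeat that follows, was in 13.8% (13.7%). The perfect direct repeat of that site with 1 base between its copies (DR1, which overlaps it) was in 0 of 58 members, and in 0.0432% of the tested genes. The median GC content was 60.0% in members and 58.4% in tested genes. A match is a description of letters only.

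PPAR receptors, nuclear receptors for fatty acids that switch on peroxisomal beta-oxidation in rodent liver, were read from a list of 8 genes with their RXR partners and PGC-1 coactivators. None had an adjusted p under 0.05 in any of the 6 comparisons with edgeR. With MPTP in the pre-treatment experiment 7 of the 8 were higher by sign (median log2 fold change 0.22), 2 with an unadjusted p under 0.05, Ppard (0.59, SE 0.15, adjusted p 0.704 from edgeR) and Ppara (0.90, SE 0.30, adjusted p 0.818 from edgeR). With irisin before MPTP, 3 of 8 were higher (median -0.14), and Ppard was lower (-0.50, SE 0.15, adjusted p 0.566 from edgeR). Ppard was the 1 gene of the list with an unadjusted p under 0.05 there. Over all genes these shares were 6.03% with MPTP and 6.22% with irisin before MPTP. In the delayed experiment the medians were -0.03 for MPTP, 0.04 for irisin alone and 0.02 for irisin after MPTP. In each of these, 1 gene had an unadjusted p under 0.05 and was higher. It was Ppargc1b with MPTP (0.45) and with irisin alone (0.45), and Rxrg with irisin after MPTP (0.31). The shares over all genes were 8.33%, 8.97% and 3.90%.

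Neighbouring pathways were also without a call. Of 17 mitochondrial beta-oxidation genes, 0 passed in the 6 comparisons with edgeR, and 1 of the 17 was higher by sign with irisin alone (median -0.13, 2 with an unadjusted p under 0.05), while with irisin before MPTP 7 were higher (median -0.02). Of 9 fission and tethering genes, 0 passed, with medians from -0.07 to 0.07, and of 10 further peroxisomal and turnover genes 0 passed, with medians from -0.03 to 0.01. Acbd4, a tether between peroxisomes and the endoplasmic reticulum, had the smallest p of these lists, at a log2 fold change of -0.93 (SE 0.17) with irisin alone and an adjusted p of 0.127 from edgeR.

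Some values carry limits of counting. Of the 79 members, 37 share annotated exon bases with another gene and 13 share at least 10%, so their reads could be divided differently if strand was not used. Acaa1a and Acaa1b, and Eci2 and Eci3, are close copies whose reads can be split between them. Decr2 shared no exon bases with another gene, and Paox shared 142 of 4907 with Echs1 on the opposite strand.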

How the data were processed

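RNA-seq of 21 mice in 7 groups of 3 was used. Read counts per gene (from featureCounts in the study's methods) and FPKM values for each mouse were deposited by the authors, 1 table for each experiment, with GO and KEGG terms beside each gene. The submitters' processing notes name HISAT, StringTie, edgeR and the build mm9, while the gene coordinates match GRCm38 (all 79 members are in GENCODE M21, 66 with the same coordinates). The use of strand in counting is not given in the sources used here.

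The quasi-likelihood test of edgeR 4.0.16 (R 4.3.3) was fitted to the counts of each experiment, two-sided, after TMM scaling and filterByExpr (smallest count 10, smallest total 15). P-values were adjusted by Benjamini-Hochberg over all genes tested, with a threshold of 0.05. The SE is the size of the log2 fold change divided by the square root of F, and intervals are at 95%. CPM compares a gene between mice, and the deposited FPKM compares genes. Alternatives were DESeq2 1.42.0, limma 3.58.1 on log2(FPKM + 1) and log2(FPKM + 0.1), which understates changes of low genes, median ratio scaling, all genes with any count, a mean FPKM of at least 1, only the compared groups, the replicate number as a block, and leaving out each mouse. In a simulation with 200 genes changed, 35% of 2-fold and 68% of 4-fold changes were found among 21941 genes for the pre-treatment MPTP comparison, and 42% and 66% among 21254 genes for the delayed one. The changed genes were drawn at random from all tested genes, whose median FPKM was below that of the members. These shares are therefore not those of the members. 3 mice against 3 cannot give an exact permutation p below 0.1.

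Members and lists were chosen with earlier results of these data known. Genes named were, in each comparison, the 3 members with the smallest p and any with an adjusted p under 0.05, the 5 with the highest FPKM in each experiment, textbook members, and the lowest and highest of a role, and other names were added after their values were seen. Some members that this rule names are not reported here. The smallest chi-square per gene between mice of a group was 39.7 over 21 pairs, so each mouse was counted as its own sample. Python 3.11.15 with pandas 2.3.3, numpy 2.4.6, scipy 1.17.1 and matplotlib 3.10.9 made the tables and plots.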

Additional observations from a re-analysis of the deposited data

Results flagged for a closer look

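Eci2, an enoyl-CoA isomerase of beta-oxidation, differed in direction between the experiments. Eci2 was picked by a search of the members for groups without overlap in opposite directions between the experiments. The search covered both the MPTP and the irisin comparisons. Over all genes, groups without overlap were higher in 7.14% and lower in 7.08% with irisin before MPTP. With irisin after MPTP these shares were 5.35% and 5.38%. The share of all genes with opposite directions was not counted. With irisin before MPTP its log2 fold change against MPTP alone was 0.20, and all 3 mice lay above all 3 mice given MPTP alone. With irisin after MPTP it was -0.19, and all 3 mice lay below. Neither value had an adjusted p under 0.05 with edgeR, and the difference between the experiments was not tested. Eci2 has a close copy, Eci3, and reads can be split between them, which was not tested. Eci3 had at most 30 reads in a mouse of the pre-treatment and 27 of the delayed experiment, and Eci2 had 1866 to 2507 and 1461 to 2396.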

How the results depend on the processing

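The number of members with an adjusted p under 0.05 was 0 in all 6 comparisons with edgeR under the other scaling and the other filters and with limma, and in the 5 comparisons fitted on only the compared groups, a setting the interaction cannot have because it uses all 4 groups. DESeq2 gave 1 with irisin before MPTP (Decr2) and 2 in delayed MPTP against control (Paox and Pex5l). Over all genes DESeq2 called 169 of 33829 and 179 of 33492 in these comparisons, where edgeR called 16 of 22641 and 29 of 21922. Leaving out each mouse in turn gave 0 to 0 for pre-treatment MPTP and for irisin after MPTP, and 0 to 1 for the other 4. The medians then ran from -0.0460 to -0.0131 for pre-treatment MPTP, 0.00726 to 0.0531 for irisin before MPTP, -0.0287 to -0.00421 for delayed MPTP, -0.0673 to -0.0288 for irisin alone, -0.0738 to -0.0300 for irisin after MPTP and -0.0168 to 0.0246 for the interaction. The cause of these changes was not tested. Of the tested gene results, 331 kept their direction and side of the threshold and 8 passed it, none reversed.

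With the replicate number as a block, 0 members had an adjusted p under 0.05 in every comparison, and no call changed, while an unadjusted p under 0.05 was given to 0 to 7 members. Same-numbered mice did not deviate together, with correlations from -0.0776 to 0.101 in the pre-treatment and -0.0765 to 0.0387 in the delayed experiment, and 4 of 21 mice correlated best with a mouse of their own number, so the numbers were not taken to pair the mice. The median SE of the members was 0.118 to 0.167 on the log2 scale, of which the share due to depth was not tested, and genes with few reads such as Acox2 and Eci3 have intervals wider than 2-fold.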

Other observations

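The KEGG peroxisome term stood beside 74 of the 79 members in the table of the delayed experiment, and it was missing there for Pex13, Pex7, Nudt19, Prdx1 and Slc27a2. Of the genes listed for the pre-treatment experiment, 176 genes carried a GO term naming the peroxisome, of which 102 were not members.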
